A study of Mus musculus with 6 samples.

Results

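Nrf2, a transcription factor encoded by Nfe2l2, and 9 genes of the oxidant defence that it is known to drive or that work beside it were examined in the hippocampal transcriptome of mice with an altered glutamate transporter. The genes were taken by symbol from a table of 54532 genes, and all 10 were found in it: Nfe2l2, Hmox1, Nqo1, Gclc, Gclm, Slc7a11, Txnrd1, Srxn1, Gpx4 and Sod2. Genes were tested where their mean FPKM reached 0.1, which all 10 did, as did 20952 genes of the table. RNA from hippocampal tissue was sequenced in 3 wild-type mice (WT1 to WT3) and in 3 TG mice (TG1 to TG3). TG mice carried the G82R and L85P changes in the astrocytic glutamate transporter GLT-1, encoded by Slc1a2, introduced with CRISPR/Cas9 into fertilised C57BL/6N eggs, and founders were mated with C57BL/6 mice. WT mice were littermates without the changes. No treatment other than the genotype is given. The methods describe heterozygous F1 mice and animals of both sexes, but the age, the sex and the number of altered alleles of the sequenced mice are not given in the sources used here. The change is in the germ line, so every cell type of the hippocampus carried it.

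In resting cells, Nrf2 is bound by Keap1 and handed to a ubiquitin ligase for degradation. Oxidants and electrophiles modify Keap1, Nrf2 then accumulates in the nucleus, pairs with small Maf proteins and binds antioxidant response elements in the promoters of its targets. Because Nrf2 is controlled mainly through protein stability, the level of its own mRNA is not a measure of its activity, and the mRNA of its targets is the usual readout. Slc7a11 is of particular interest beside a glutamate transporter: it encodes xCT, which takes up cystine for glutathione synthesis in exchange for glutamate released from the cell, whereas GLT-1 clears glutamate from outside the cell. In the brain these targets are used most strongly by astrocytes, which supply neurons with precursors of glutathione.

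The authors deposited FPKM, read counts scaled to gene length and library size, 1 value for each gene and library. The reads behind each value could be recovered, and 16081281 to 18751057 reads lay on genes in each library. The floor of 3 reads on a 1 kb gene corresponded to an FPKM of 0.16 to 0.19, and each of the 10 genes had between 56 and 4880 reads in every library. Hippocampal neuron markers had a summed FPKM of 320 to 355 in the 6 libraries. The libraries TG1 and TG2 stood apart through genes of the choroid plexus, the secretory epithelium of the ventricles: the summed FPKM of its 12 markers was 1218 in TG1 and 3852 in TG2, against 66.5 in TG3 and 58.1 to 83.0 in WT mice. Several values that moved with TG1 or TG2 by over 1.5 times are given without them as well. Slc1a2 itself (ENSMUSG00000005089, chr2:102658659-102790784) had an FPKM of 202, 199.5 and 177 in WT mice and of 222, 207 and 217 in TG mice. The 3 TG libraries lay above the WT libraries, with a log2 fold change of 0.16 ± 0.0856 (SE, n = 3 mice per group, limma, adjusted p = 0.789), or 0.10 without WT3. The alteration replaces amino acids, so a level counted over the whole gene does not check the genotype labels. FPKM is a level of mRNA, whereas by Western blot the paper reports GLT-1 protein as nearly lost from the hippocampus of TG mice.

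No change of the Nrf2 programme was detected in the hippocampus of TG mice. Of the 10 genes, 0 were higher and 0 were lower in TG mice by limma, either at an adjusted p under 0.05 or at an unadjusted p under 0.05, and the smallest unadjusted p was 0.147, that of Nfe2l2. Over all genes tested, 0.00955% had an adjusted p under 0.05 in either direction, which was 2 genes. At an unadjusted p under 0.05, 3.13% were higher and 2.78% were lower. In 0 of the 10 genes did all TG libraries lie above all WT libraries, against 6.35% of all genes, and in 0 did they lie below, against 5.71% of all genes. The log2 fold changes ran from -0.03 to 0.40, 6 positive and 4 negative, with a median of 0.09 beside -0.002 over all genes tested. A count of 0 in 10 lies near each of these background shares and is no result about the 10 genes. In bulk tissue, a lower level can come from fewer cells of a type or from less RNA per cell, and these cannot be told apart.

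**Figure D1:**
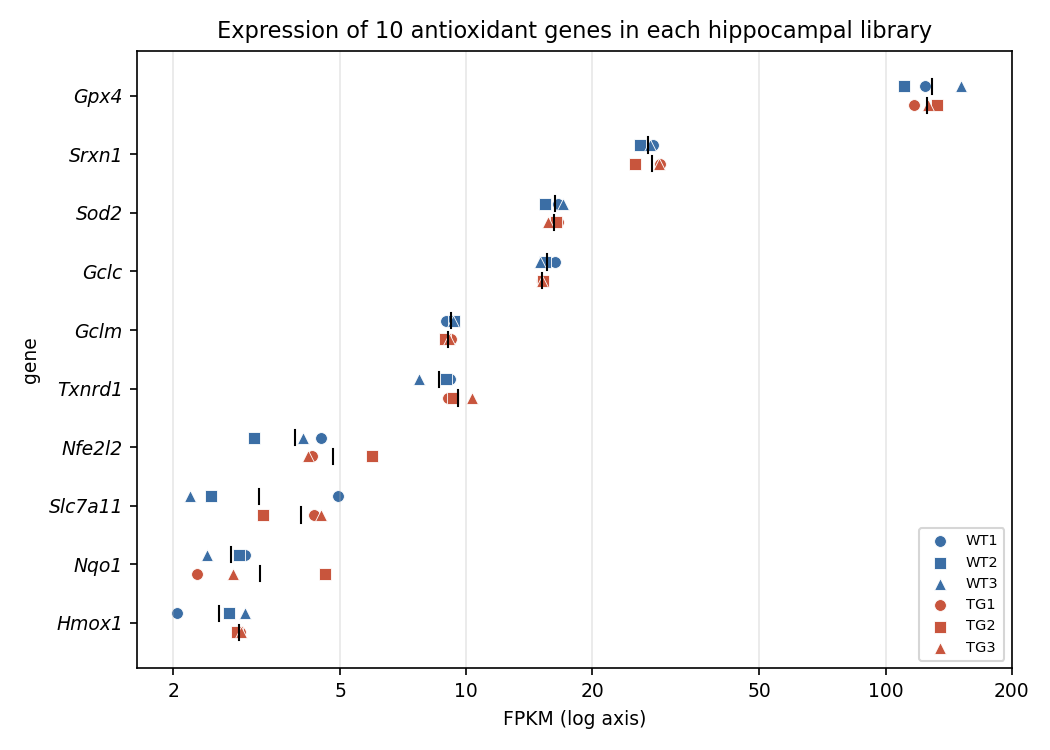
FPKM of the 10 Nrf2 and glutathione genes in each of the 3 WT and 3 TG libraries (points, marker shape by replicate number), with the group means as bars. In all 10 genes the WT and TG points overlap, and the widest scatter relative to level is that of Slc7a11, Nqo1 and Nfe2l2.

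The width of the intervals sets what could have been seen. For Sod2, Gclc, Gclm and Srxn1 the 95% interval of the TG to WT difference lay between -11.9% and 15.7%, whereas for Slc7a11 it reached from -18.4% to 114%. Among the 13325 genes whose mean FPKM was 1 or more, the median SD within groups on the log2 scale was 0.140 and the median distance from the estimate to either end of the 95% interval was 0.270. Gclm had an SD of 0.0299 on that scale, lower than in all but 0.420% of the genes tested, and Gclc one of 0.0428, lower than in all but 1.64%. Slc7a11, with 0.468, stood above 77.8% of the genes tested.

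**Figure D2:**
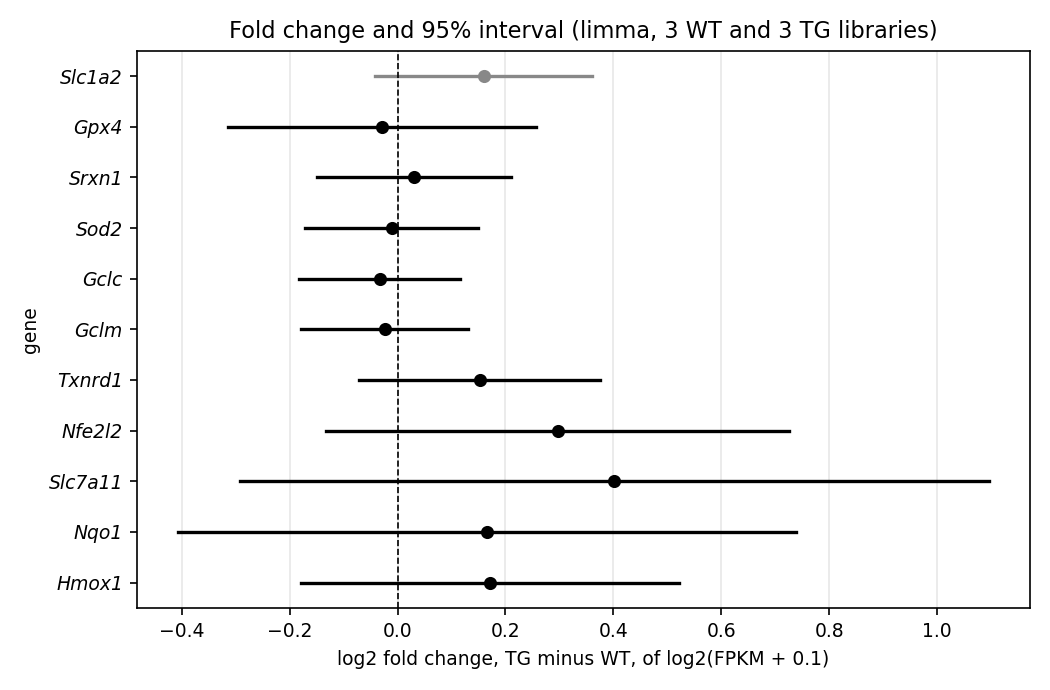
Log2 fold change of TG over WT on the log2(FPKM + 0.1) scale (points) with its 95% interval from limma (lines) for Slc1a2 in grey and the 10 Nrf2 and glutathione genes in black, ordered by level. Every interval includes 0, and the intervals widen from 0.12 above 0 for Gclc to 1.10 for Slc7a11.

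Nfe2l2 (ENSMUSG00000015839, chr2:75675513-75704641) had an FPKM of 4.50, 3.12 and 4.08 in WT mice and of 4.295, 5.97 and 4.20 in TG mice. TG2 was the highest of the 6 libraries and WT2 the lowest, and WT1 exceeded TG1 and TG3, so the groups overlapped. The log2 fold change was 0.30 ± 0.183 (SE, n = 3 per group, limma, adjusted p = 0.789), with a 95% interval from -8.77% to 65.4%. Without TG2 it was 0.14 (limma, adjusted p = 0.852), without WT2 it was 0.15, and without both TG1 and TG2, where it was 0.12, the TG library that is left, TG3, lay within the WT range. Keap1, the repressor of Nrf2, had a log2 fold change of 0.15 ± 0.0820 (SE, limma, adjusted p = 0.789), and its FPKM was 14.5, 13.7 and 15.3 in WT and 16.5, 14.7 and 17.0 in TG mice. The ratio of Nfe2l2 to Keap1, both per length, was 0.311, 0.227 and 0.267 in WT and 0.260, 0.405 and 0.247 in TG mice, highest in TG2 and lower in TG1 and TG3 than in 2 of the WT mice.

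To show where Nrf2 could bind in these genes, their RefSeq promoter windows (build GRCm38.p6, from 250 bases before to 50 after each gene start) were searched on both strands for the antioxidant response element core TGACNNNGC. Windows were matched for 8 of the 10 genes, all but Hmox1 and Gclc, and 4 of the 8 (50%) held the core, Gclm, Nfe2l2, Srxn1 and Txnrd1. Of the 27025 genes with a window 13.99% held it, and of the 12938 tested genes with a window 16.59%. Of all 32851 windows 12.39% held it. A gene was counted if any of its windows held the core, so a gene with several windows had more openings for a match. The 4 matches are shown 5′ to 3′ on the strand that reads the core, which is the minus strand for each, with the 9 bases of the core in capitals and 10 bases to either side. The match of Nfe2l2 lies at chr2:75704885-75704913, of Gclm at chr3:122245413-122245441, of Srxn1 at chr2:152105542-152105570 and of Txnrd1 at chr10:82859104-82859132.
Nfe2l2: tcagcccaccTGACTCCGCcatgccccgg
Gclm: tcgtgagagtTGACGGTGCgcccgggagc
Srxn1: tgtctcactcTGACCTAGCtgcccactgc
Txnrd1: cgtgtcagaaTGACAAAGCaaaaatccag
The core of Gclm began 134 bases before the gene start, that of Nfe2l2 240 bases before it, and that of Txnrd1 92 bases before a start, in 1 of its 3 windows. In Srxn1 the core lay 28 to 36 bases after the start. The windows of Gpx4, Nqo1, Slc7a11 and Sod2 did not hold these letters. The broader core TGANNNNGC, which every match above also fits, was found in 5 of 8 genes (62.5%), adding Slc7a11. Its share was 45.05% of all genes and 47.53% of the tested genes with a window. Sequence outside these windows was not searched, so a gene without a match here can hold the element elsewhere. A match is a description of the sequence, and no binding was measured. None of the 4 genes with the core was called in TG mice, and their values follow with the others by role.

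The glutathione arm was the most even of the set. Gclc (ENSMUSG00000032350, chr9:77754535-77794485), the catalytic subunit of glutamate-cysteine ligase that performs the limiting step of glutathione synthesis, had an FPKM of 16.3, 15.4 and 14.96 in WT and 15.2, 15.2 and 15.1 in TG mice. The TG libraries lay within the WT range, and the log2 fold change was -0.03 ± 0.0639 (SE, limma, adjusted p = 0.904), with an interval from -11.9% to 8.41%. Gclm (ENSMUSG00000028124, chr3:122245557-122270732), the regulatory subunit that raises the affinity of the enzyme for glutamate, had 8.97, 9.37 and 9.31 in WT and 9.21, 8.89 and 9.08 in TG mice. The groups overlapped, with a log2 fold change of -0.02 ± 0.0661 (adjusted p = 0.937) and an interval from -11.7% to 9.53%. Without TG1 the log2 fold change was -0.04 and without TG2 it was -0.01. Gm17494 and Gm6061, which overlap Gclm, had at most 81 reads in a library, and the strand setting of the counting is not given in the sources used here. The catalytic to regulatory ratio, per length, ran from 1.61 to 1.81 over the 6 libraries, with WT1 the highest and WT3 the lowest, and TG values of 1.65, 1.71 and 1.67 between them.

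Slc7a11 (ENSMUSG00000027737, chr3:49892526-50443614) had the largest log2 fold change of the 10 genes and the widest scatter. Its FPKM was 4.96, 2.46 and 2.20 in WT mice and 4.33, 3.28 and 4.498 in TG mice, so that WT1 was the highest of all 6 libraries while the other 2 WT mice were the lowest. The log2 fold change was 0.40 ± 0.296 (SE, n = 3 per group, limma, adjusted p = 0.789). Every WT mouse bore on this value: without WT1 the log2 fold change was 0.75 ± 0.171 (limma, adjusted p = 0.682), without WT2 0.26 and without WT3 0.19. The levels of its partner Slc3a2, the heavy chain that carries xCT to the membrane, had a log2 fold change of 0.00 (limma, adjusted p = 0.997), and the ratio of Slc7a11 to Slc3a2, per length, ran from 0.0602 in WT3 to 0.137 in WT1. The order of the libraries for Slc7a11 (WT1, TG3, TG1, TG2, WT2, WT3, from high to low) was the same as for the mean log2(FPKM + 0.1) of 10 meningeal fibroblast markers, which was 1.44, 0.371 and 0.146 in WT and 1.14, 0.616 and 1.15 in TG mice. Their summed FPKM was 18.5 to 41.3 in WT and 25.2 to 32.5 in TG mice, 9 of the 10 markers were positive in TG mice, and 0 passed an unadjusted p under 0.05 by limma. With that mean as a covariate, a choice made after seeing the data, the log2 fold change of Slc7a11 was 0.12 ± 0.0978 (limma, adjusted p = 0.985). With the mean of the choroid plexus markers as the covariate instead, it was larger, at 0.53 ± 0.427 (SE).

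**Figure D3:**
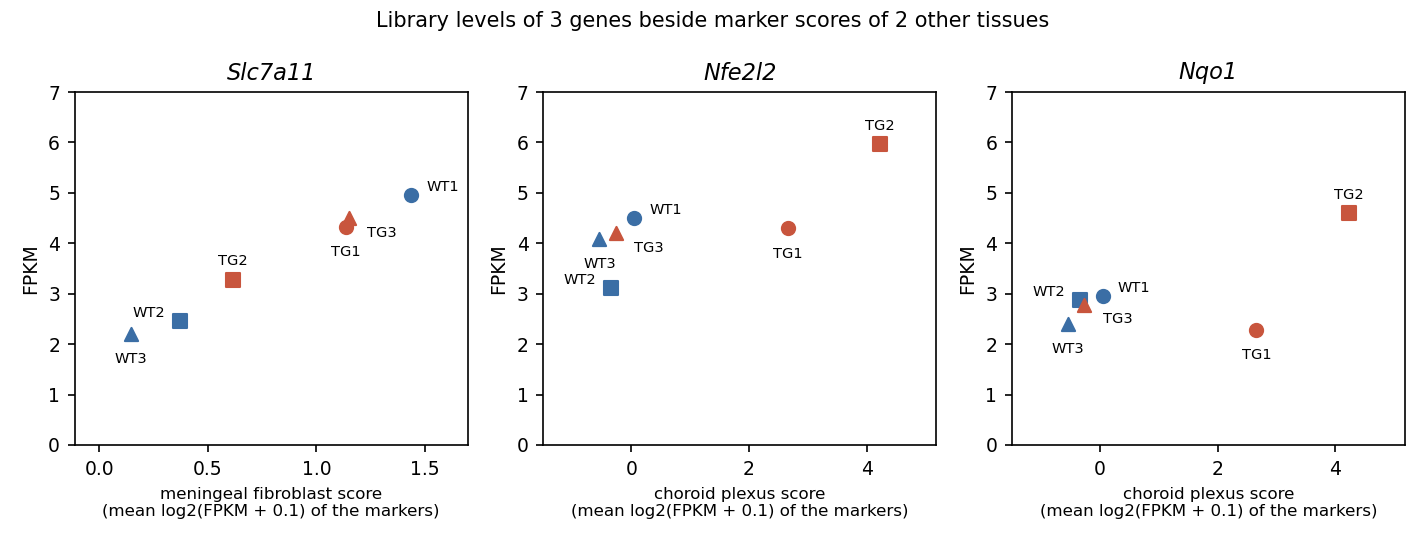
FPKM of Slc7a11 against the meningeal fibroblast marker score, and of Nfe2l2 and Nqo1 against the choroid plexus marker score, each score being the mean log2(FPKM + 0.1) of its markers, for the 3 WT (blue) and 3 TG (red) libraries. The libraries have the same order on both axes for Slc7a11, whereas Nfe2l2 and Nqo1 are highest in TG2, the library with the highest choroid plexus score, but not in TG1, the next highest.

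The thioredoxin arm comprised Txnrd1, the cytosolic thioredoxin reductase, and Srxn1, the sulfiredoxin that repairs overoxidised peroxiredoxins. Txnrd1 (ENSMUSG00000020250, chr10:82833951-82897712) had an FPKM of 9.14, 8.95 and 7.73 in WT and 9.03, 9.32 and 10.3 in TG mice. WT1 lay above TG1, so the groups overlapped by 1 pair, and WT3 was the lowest and TG3 the highest. The log2 fold change was 0.15 ± 0.0951 (SE, limma, adjusted p = 0.789), with an interval from -4.80% to 29.7%. It was 0.08 without WT3, 0.09 without TG3 and 0.27 without both TG1 and TG2. Srxn1 (ENSMUSG00000032802, chr2:152105516-152111376) had 27.8, 26.0 and 27.4 in WT and 28.9, 25.3 and 28.9 in TG mice. TG2 was the lowest of all libraries while TG1 and TG3 were the highest, and the log2 fold change was 0.03 ± 0.0765 (adjusted p = 0.928; interval -9.77% to 15.7%). For Srxn1 it was -0.0015 without TG1, 0.09 without TG2 and 0.09 without both.

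Hmox1 and Nqo1, often used as reporters of Nrf2 activation, had the lowest mean FPKM of the 10 genes over the 6 libraries, although Slc7a11 lay below both in WT2 and WT3. Hmox1 (ENSMUSG00000005413, chr8:75093621-75100589), which degrades heme, had an FPKM of 2.04, 2.72 and 2.96 in WT and 2.89, 2.84 and 2.91 in TG mice. The 3 TG libraries lay within the WT range, below WT3, and the log2 fold change was 0.17 ± 0.149 (SE, limma, adjusted p = 0.789), with an interval from -11.6% to 43.5%. It was 0.02 without WT1 and 0.28 without WT3. Nqo1 (ENSMUSG00000003849, chr8:107388225-107403206), a quinone reductase, had 2.96, 2.87 and 2.41 in WT and 2.28, 4.598 and 2.78 in TG mice, on 56 to 128 reads. TG2 was the highest library and TG1 the lowest, and the log2 fold change was 0.17 ± 0.244 (adjusted p = 0.872; interval -24.6% to 66.9%). Its direction rested on TG2, without which it was -0.12, while it was 0.38 without TG1, 0.02 without both and 0.08 without WT3, and with the choroid plexus score as a covariate it was -0.16. The part of choroid plexus RNA in the values of Nfe2l2 and Nqo1 was not tested. With the same covariate the log2 fold change was 0.04 ± 0.227 (SE) for Nfe2l2 and 0.23 ± 0.221 for Hmox1. With the meningeal fibroblast score as the covariate it was 0.28 ± 0.208 for Nfe2l2, 0.20 ± 0.275 for Nqo1 and 0.27 ± 0.122 for Hmox1.

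Gpx4 and Sod2 complete the set on the side of lipid peroxides and mitochondrial superoxide. Gpx4 (ENSMUSG00000075706, chr10:80047166-80056439), the selenoenzyme that reduces lipid hydroperoxides with glutathione and is known as the brake on ferroptosis, was the most abundant of the 10 genes, above 98.8% of the genes tested. Its FPKM was 124, 110.8 and 151 in WT and 117, 132 and 126 in TG mice, all TG libraries within the WT range, with a log2 fold change of -0.03 ± 0.122 (SE, limma, adjusted p = 0.960; interval -19.6% to 19.5%). The log2 fold change was 0.09 without WT3, 0.02 without TG1 and -0.13 without WT2, so its sign depended on single mice. Without TG2 it was -0.07, and without both TG1 and TG2 it was -0.01. Of its 50-base stretches 34.7% also occur in other genes, the processed pseudogene Gpx4-ps2 among them, and how the counting split such reads is not given in the sources used here. Gpx4-ps2 (ENSMUSG00000110841, chr10:45875291-45876086) was listed with an FPKM of 59.6, 46.7 and 62.9 in WT and 42.9, 56.8 and 48.3 in TG mice, or 14.5% to 18.1% of the summed reads of both. Its level can hold reads of Gpx4, and its log2 fold change was -0.19 ± 0.142 (SE, limma, adjusted p = 0.789). Sod2 (ENSMUSG00000006818, chr17:13006846-13040063), the manganese superoxide dismutase of mitochondria, had 16.5, 15.4 and 17.0 in WT and 16.5, 16.3 and 15.7 in TG mice. All TG libraries lay within the WT range. The log2 fold change was -0.01 ± 0.0685 (adjusted p = 0.974), with an interval from -11.2% to 10.9%. It was -0.03 without TG1, -0.02 without TG2 and -0.06 without both. Of the 50-base stretches of Sod2 21.0% occur in other genes as well.

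Ordered by FPKM, which is a level per length, the set ran from Gpx4 through Srxn1, Sod2, Gclc, Gclm, Txnrd1, Nfe2l2, Slc7a11 and Nqo1 to Hmox1. Gpx4 exceeded Srxn1 by a ratio of 4.05 to 5.52 and Srxn1 exceeded Sod2 by 1.55 to 1.84, in 6 of 6 libraries each. Sod2 was above Gclc in 5 of 6 libraries, with ratios from 0.997 to 1.14, so these neighbours differed little. Gclc was above Gclm in 6 of 6, Txnrd1 above Nfe2l2 in 6 of 6 with a ratio of 1.56 to 2.87, and Gclm above Txnrd1 in only 3 of 6. The 4 lowest genes, Nfe2l2, Slc7a11, Nqo1 and Hmox1, were each above the next in 3 of 6 libraries, so their order was not settled.

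The rest of the antioxidant system was covered by 10 lists with 154 genes, of which 143 were tested. By limma 0 of the 143 had an adjusted p under 0.05, and at an unadjusted p under 0.05 there were 0 higher genes (3.13% of all genes tested) and 6 lower genes, or 4.20% (2.78% of all genes tested). All TG libraries lay above all WT libraries in 2.10% of them and below in 8.39%, against 6.35% and 5.71% over all genes. The median log2 fold change was -0.04 beside -0.002 over all genes. The smallest adjusted p of any listed gene was 0.786, so most genes named from the lists are given with their SE (n = 3 mice per group) alone. The lower count depended on single libraries: it was 2 without WT3, without TG1 or without TG3, 9 without WT2, 1 with the choroid plexus covariate, 2 with the meningeal covariate and 0 without both TG1 and TG2. The higher count moved as well, to 2 without WT1, TG2 or TG3 and to 1 without WT2 or WT3 or with limma-voom. WT3 held the highest values of the 6 libraries in several of these lists, with a median deviation from the WT mean of 0.18 for glutathione peroxidases and transferases, 0.17 for thioredoxins and peroxiredoxins and 0.16 for selenoprotein synthesis, on the log2 scale. Without WT3 the log2 fold changes of several genes named from the lists were smaller in size by over 1.5 times, at -0.05 for Gstm1, -0.21 for Gstm6, -0.07 for Sod1, -0.13 for Fth1, -0.07 for Cisd1, -0.16 for Trnau1ap, -0.06 for Selenow and 0.10 for Sesn3. Without TG1 the same held for Sod1 at -0.07 and Taldo1 at -0.09, and without both TG1 and TG2 for Sesn3 at 0.12 and Sod1 at -0.12.

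**Figure D4:**
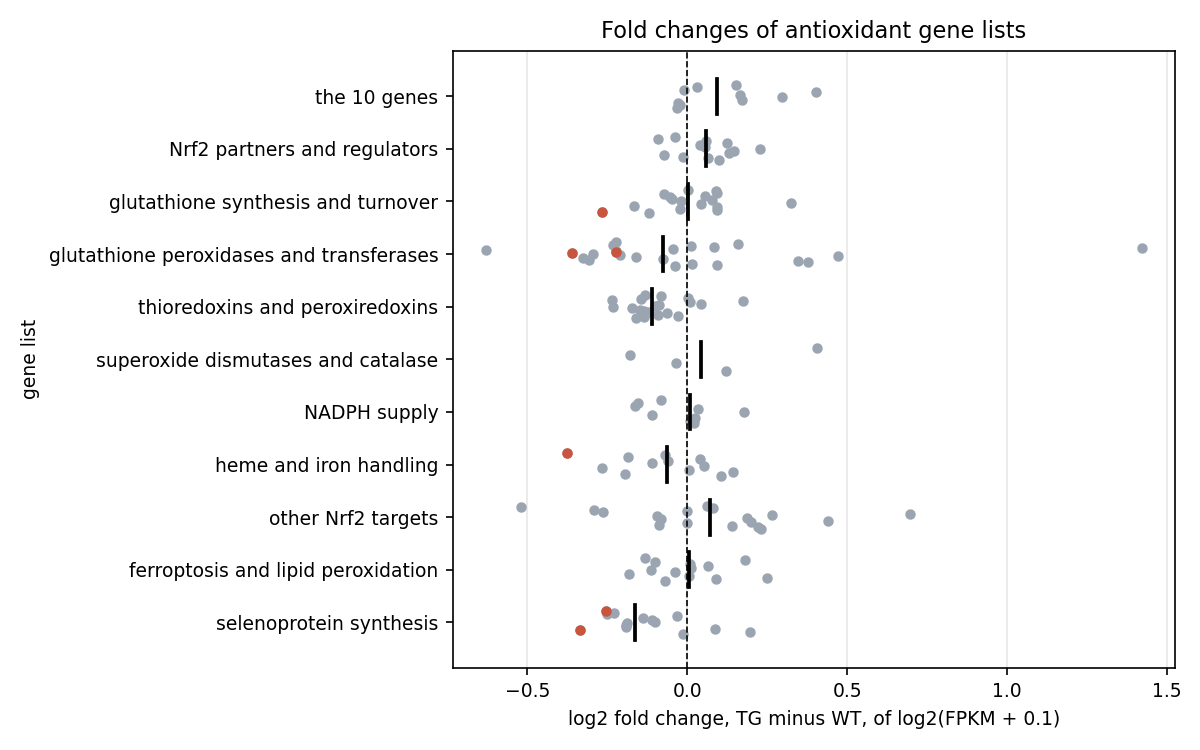
Log2 fold change of TG over WT of every tested gene of the 10 Nrf2 and glutathione genes and the 10 antioxidant lists (points, in red at an unadjusted p under 0.05 by limma), with the list medians as black bars. The 6 red points all lie below 0, and the list medians run from -0.16 for selenoprotein synthesis to 0.09 for the 10 genes. The far right point is Gstp2, at 1.42 on 0 to 23 reads.

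Among the 13 tested partners and regulators of Nrf2, 0 were higher and 0 lower at an unadjusted p under 0.05 by limma (median 0.06). Nfe2l1, the related factor that controls proteasome genes, had an FPKM of 62.8, 58.8 and 60.5 in WT and 70.4, 64.5 and 63.7 in TG mice (log2 fold change 0.12 ± 0.0696). All TG libraries lay above the WT libraries for it, and the log2 fold change was 0.08 without TG1. The most abundant gene of that list, Sqstm1, the autophagy receptor that competes with Nrf2 for Keap1, had a log2 fold change of -0.04 ± 0.0785. Of the 17 genes of glutathione synthesis and turnover, 0 were higher and 1 lower (median 0.00). The lower gene was Chac1, a cytosolic enzyme that cleaves glutathione, at 5.15, 4.77 and 4.50 in WT and 4.05, 3.54 and 4.36 in TG mice (log2 fold change -0.27 ± 0.109, limma, adjusted p = 0.786), and -0.13 without both TG1 and TG2. Ggt7 was the most abundant gene of the list, with a log2 fold change of -0.02.

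Of the 23 tested glutathione peroxidases and transferases, 0 were higher and 2 lower (median -0.08). Both lower genes encode transferases of the mu class. Gstm6 had an FPKM of 5.41, 4.67 and 6.82 in WT and 4.003, 4.88 and 4.12 in TG mice, with overlapping groups (log2 fold change -0.36 ± 0.152). Gstm7 had 14.4, 16.3 and 15.8 in WT and 11.9, 14.2 and 13.6 in TG mice (log2 fold change -0.22 ± 0.0909). The most abundant transferase, Gstm1, had 125, 122 and 155 in WT and 115, 124 and 118 in TG mice (log2 fold change -0.16 ± 0.105). Of the 50-base stretches of Gstm1 18.9% occur in other genes, mainly of the mu class, Gstm2 and Gstm3 among them. For Gstm6 the share was 5.97%, with Gstm3 but not Gstm1 among the partners, and for Gstm7 it was 0.532%. The split of reads of Gstm1 and Gstm6 with these partners is uncertain. Of the 20 thioredoxins, peroxiredoxins and related genes, 16 had a negative log2 fold change, with 0 lower and 0 higher at an unadjusted p under 0.05 (median -0.11). Prdx5, the most abundant, had -0.10, and Sesn3, the gene with the smallest p, had 0.17 ± 0.0957.

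For superoxide dismutases and catalase, 0 of 4 genes passed in either direction (median 0.04). Sod1, the cytosolic dismutase, had a log2 fold change of -0.18 ± 0.132. Sod3, the extracellular dismutase, had 3.08, 2.92 and 3.03 in WT and 3.97, 5.88 and 2.77 in TG mice. The 2 high libraries for Sod3 were TG1 and TG2, and its log2 fold change of 0.41 ± 0.243 became -0.11 without them, 0.14 without TG2 and 0.67 without TG3. Of the 9 tested genes of NADPH supply 0 passed (median 0.01), and Taldo1, a pentose phosphate enzyme, had -0.15 ± 0.0778.

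Of the 12 genes of heme and iron handling, 0 were higher and 1 lower (median -0.06). The lower gene was Tfrc, the transferrin receptor, at 19.8, 22.5 and 25.5 in WT and 18.6, 16.9 and 16.5 in TG mice. Its groups did not overlap, and it had the smallest p of the 143 genes, with a log2 fold change of -0.38 ± 0.104 (SE, n = 3 per group, limma, adjusted p = 0.786). Fth1, the ferritin heavy chain and the most abundant gene of the list, also had all TG libraries below the WT libraries, at 2392, 2457 and 3202 in WT and 2007, 2300 and 2347 in TG mice, with a log2 fold change of -0.27 ± 0.192. Among the 18 tested other targets of Nrf2, 0 passed in either direction (median 0.07), and Aox1, an aldehyde oxidase, had 0.846, 0.891 and 0.738 in WT and 1.22, 1.43 and 0.867 in TG mice (log2 fold change 0.44 ± 0.214). TG1 and TG2 were the high libraries for Aox1, TG3 lay within the WT range, and without TG1 and TG2 the log2 fold change was 0.07. Akr1a1, the most abundant gene of that list, had -0.09.

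Of the 13 tested genes of ferroptosis and lipid peroxidation, 0 passed in either direction (median 0.00). Slc39a14, a zinc and iron transporter, had all TG libraries above the WT libraries, at 3.55, 3.84 and 3.34 in WT and 4.01, 4.04 and 4.12 in TG mice (log2 fold change 0.18 ± 0.0927). Cisd1, an iron-sulfur protein of the outer mitochondrial membrane, had -0.18 ± 0.102. Of the 14 genes of selenoprotein synthesis, on which Gpx4 and Txnrd1 depend, 12 had a negative log2 fold change, and 0 were higher and 2 lower (median -0.16). Pstk, the kinase that acts on the serine carried by the selenocysteine tRNA, had 1.78, 2.09 and 2.22 in WT and 1.51, 1.54 and 1.70 in TG mice (log2 fold change -0.33 ± 0.135), and 56.8% of its 50-base stretches are shared with other genes. Trnau1ap, a protein that binds this tRNA, had 6.65, 5.96 and 7.65 in WT and 5.62, 5.58 and 5.66 in TG mice (log2 fold change -0.25 ± 0.103). Selenow, the most abundant selenoprotein of the list, had -0.14 ± 0.121. The 2 selenoenzymes among the 10 genes had log2 fold changes of -0.03 for Gpx4 and 0.15 for Txnrd1.

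Cell type markers were examined because the antioxidant genes differ between cell types. All 10 oligodendrocyte markers had negative log2 fold changes (median -0.28, 1 lower at an unadjusted p under 0.05 by limma), and their summed FPKM was 679 to 850 in WT and 530, 728 and 781 in TG mice. TG1 was the low library, TG2 and TG3 lay within the WT range, and the median was -0.12 without TG1, with 9 of 10 markers negative, and -0.07 without both TG1 and TG2, with 8 of 10 negative. Of the 10 microglia markers 2 were higher, 4 without TG1 and 0 without TG2 or without TG3, with summed FPKM of 174 to 198 in WT and 158 to 219 in TG mice. Astrocyte markers had a median log2 fold change of 0.02 with 0 passing, and summed FPKM of 542 to 619 in WT and 542 to 571 in TG mice. Neuron markers had a median of 0.04 and endothelial markers one of 0.08, with 0 and 1 genes higher. Blood cell markers had a median of -0.17 with 0 passing. All 12 choroid plexus markers had positive log2 fold changes (median 2.78), 6 of them higher at an unadjusted p under 0.05 by limma. Without both TG1 and TG2 their median was -0.07, with 8 of 12 negative. The part of these markers in the values of the antioxidant genes was not tested. The covariate fits above do not measure it: the meningeal score was chosen after seeing the data. The choroid plexus score was high in TG1 and TG2 alone, so it goes largely with genotype.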

How the data were processed

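Hippocampal RNA of 3 WT and 3 TG mice was analysed. The authors counted reads per gene with HTSeq and deposited FPKM with the gene length. The labels name GRCm38 (mm10), and the aligner, the annotation release and the strand setting are not given in the sources used here. The paper's methods name Trizol and a NEBNext Ultra kit, and the labels an RNeasy and a SMARTer kit. Dividing FPKM times length by the smallest step of each library gave whole reads for 100% of values (tolerance 0.05 reads), and 16081281 to 18751057 reads lay on genes per library. The floor of 3 reads covers counting error only. The printed SE and 95% intervals come from the spread between mice in the fit, drawn by eBayes toward that of other genes of similar level. They are therefore not the spread of a single gene alone.

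The 20952 of 54532 genes whose mean FPKM reached 0.1 were fitted with limma 3.58.1 in R 4.3.3 (lmFit, eBayes with trend) on log2(FPKM + 0.1), a scale that understates changes of low genes. All 6 libraries entered without covariates or block, and p-values were adjusted by Benjamini-Hochberg over all genes tested. The fit was tested on simulated data. The 10 genes and all lists were chosen with earlier results of these data known. Named genes were the 10 genes, Slc1a2 and, from each list, the most abundant gene, the gene with the smallest p and each gene at an unadjusted p under 0.05. Keap1, Slc3a2, Gstp2 and Gpx4-ps2 were named outside this rule. Alternatives covered the pseudocount (0.01 or 1), the filter on low values, upper-quartile scaling, the variance model, limma-voom on recovered reads, protein-coding genes only, each library left out, the replicate number as a block and a choroid plexus score as a covariate. The fits without TG1 and TG2 and with a meningeal fibroblast score were chosen after seeing the data. Promoter windows were from RefSeq (GRCm38.p6). Sequence sharing was measured over all 50-base stretches of each gene's transcripts, as the percentage also found in other genes. Scripts ran in Python 3.11.15 with numpy 2.4.6, pandas 2.3.3 and matplotlib 3.10.9.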

Additional observations from a re-analysis of the deposited data

How the results depend on the processing

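Over 180 alternative values of the 10 genes, 1 passed an unadjusted p under 0.05, Slc7a11 without WT1, so the count of higher genes ran from 0 to 1 with a library left out and the count of lower genes and of genes called at an adjusted p under 0.05 was 0 in every alternative. The median log2 fold change of the 10 genes, 0.0916, was 0.0352 to 0.0941 with a library left out and 0.0171 with the choroid plexus covariate. The 2 genes called over all genes tested became 0 with a pseudocount of 0.01 or 1, without a filter, with limma-voom, with protein-coding genes only, under the replicate block, with either covariate and without TG1 and TG2, 1 with a mean FPKM of at least 1 and 9 with a variance without trend, and 0 to 6 with a library left out (6 without TG1). Same-numbered libraries had correlations of deviations of 0.0125, 0.0434 and 0.00314, and the other pairs ran from -0.0274 to 0.0159. These values show little deviation shared by number, but with 3 pairs they do not decide whether the mice were paired. The replicate block left the median of the 10 genes at 0.0916 with 0 of them called. Signs turned for Nqo1 (-0.16 with the choroid plexus covariate, -0.12 to 0.38 with a library left out), Gpx4 (0.0096 with the meningeal covariate, -0.13 to 0.093), Sod2 (-0.053 to 0.020), Srxn1 (-0.0015 to 0.095), Sqstm1 (-0.072 to 0.012), Ggt7 (-0.086 to 0.021), Prdx5 (-0.17 to 0.011) and Sod3 (-0.15 with the choroid plexus covariate and -0.11 without TG1 and TG2). The cause was not tested. Over all alternatives the median of all genes was at most 0.00829 from 0 on the log2 scale. With 3 mice per group, the intervals of Slc7a11, Nqo1 and Nfe2l2 do not exclude a change of more than 1.5-fold.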

Other observations

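Of the 154 listed antioxidant genes 11 had a mean FPKM under 0.1 and were not tested. Of these, Nnt, the mitochondrial transhydrogenase, was chosen for mention after its values were seen: it had 9, 12 and 9 reads in WT mice and 2, 6 and 5 reads in TG mice, and its mean FPKM of 0.058 was under the filter. The other 10 had at most 10 reads in any library, and Gsta1 had 0 reads in all 6.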
